A study of Saccharomyces cerevisiae with 5 samples.

Results

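Scarce and sufficient phosphate were compared in budding yeast as 2 levels, with the arrays at 0 and 0.01 mM phosphate on the scarce side and those at 0.1, 1 and 10 mM on the sufficient side. The split took in all 5 of the 5 samples of the series. Every sample came from the W303 background carrying PHO4-MYC::TRP1, a MYC-tagged form of the transcription factor gene PHO4 joined to the TRP1 marker, and no strain without the tag was measured. Log-phase cells were held without phosphate for 3 h, then kept for 80 min at their final dose, and the 0 mM sample stayed without phosphate. Each dose was 1 Affymetrix array, so the doses of a side stood in for replicates. The error of a difference combines that gene's spread between doses with the spread over all genes, as moderated by limma. It had 3 residual degrees of freedom per gene and 7.38 after moderation. Whether the doses were parallel or separate cultures is not given, so p-values measure only the spread between these arrays, which may be technical.

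Pho4 is the factor that switches on genes for taking up, freeing and storing phosphate when phosphate runs short; the cyclin-dependent kinase Pho85 with its cyclin Pho80 keeps it inactive when phosphate is plentiful. Yeast that lack a nutrient also slow their growth. They then lower the genes that build ribosomes and raise a general stress program driven by Msn2 and Msn4, which includes chaperones, redox enzymes and the carbohydrate stores trehalose and glycogen. The series title asks about the targets of Pho4; the account below covers the whole genome.

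After log2 transformation with a background level of 11.4 signal units, 4824 genes had a usable probe set and were fitted together with limma. At a Benjamini-Hochberg adjusted p below 0.05, 1062 genes (22% of those fitted) were lower at sufficient than at scarce phosphate, 549 genes (11.4%) were higher, and 3213 (66.6%) were not called. Below, fell and rose mean called lower and called higher at sufficient phosphate. Among genes that fell, 729 differed at least 2-fold, 189 at least 4-fold and 21 at least 16-fold. Among genes that rose, 350 differed at least 2-fold, 61 at least 4-fold and none of them 16-fold or more. The median fold was 2.38 among genes that fell and 2.2 among those that rose. Both scarce arrays lay above all 3 sufficient arrays for 1800 genes (37.3%) and below them for 1056 (21.9%). With 1 array left out the counts fell to between 557 and 914 lower and between 256 and 360 higher; 557 and 360 were without the 0 mM array, and 557 and 256 without the 1 mM array. In bulk RNA, fewer cells carrying a transcript cannot be told apart from less of it per cell.

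**Figure D1:**
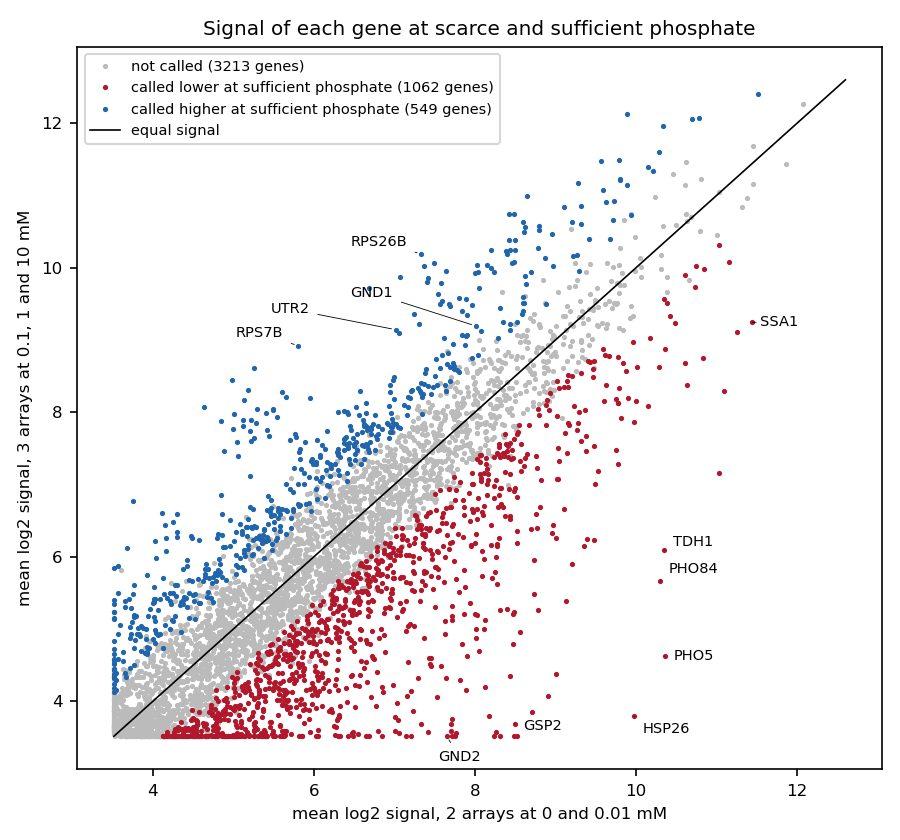
Mean log2 signal of each of the 4824 genes at scarce phosphate (2 arrays, horizontal) and at sufficient phosphate (3 arrays, vertical) in the deposited scaling, with red points for the 1062 genes called lower, blue for the 549 called higher and grey for the rest. Points far below the line of equal signal outnumber points far above it, and the row of points at the bottom holds genes at the background level on every sufficient array.

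These directions are those of the deposited scaling. The median gene differed by -0.16 (log2, sufficient minus scarce). With all arrays at 1 median the median difference was 0.15 and the counts were 798 lower and 1136 higher, so the share of calls that were lower went from 65.9% to 41.3%. Quantile normalization gave 903 lower and 1005 higher, or 47.3% lower. In neither did a called gene turn its sign. Of the 226 called genes named here, 211 kept their call in both; ADE12, ATX1, CDC19, CNE1, HSC82, KAR2, LST8, PCL9, PDI1, SIW14, SNF2, SNR45, SSC1, TPM1 and VMA16 lost it in at least 1. The poly-A spike-in controls were 4.53-fold brighter on the scarce side, at geometric means of 243 and 72.3 against 38.9, 27.6 and 23.4, while the hybridisation controls differed 1.01-fold. Equal spike-in signal adds 2.18 to every difference, and then 32 genes were lower, 3792 were higher and 918 called genes turned sign. Lists are therefore described by their relative median, the median difference of their fitted members minus that of all genes, which such a shift does not change. Where another setting moved it by over 1.5 times, the range over the other settings or the value in that setting follows it. Of the lists described below, the Pho4 targets, the Msn2 and Msn4 stress genes and the small heat shock proteins had medians that stayed below 0 under equal spike-in signal; every other list that is lower here turned.

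The remaining array measures also split by side. Ribosomal RNA probe sets were 2.87-fold brighter at scarce phosphate in the geometric mean, from 0.94-fold to 9.66-fold over the single probe sets. The 3'/5' probe set ratio, a sign of RNA integrity, was 2.37 and 3.00 for ACT1 on the scarce arrays against 1.11 to 2.19 on the others, and for TBP 2.63 and 4.52 against 1.51 to 2.35. The part of these measures in the differences between the sides was not tested. Across genes, log2 signals correlated at 0.943 between the scarce arrays, at 0.97 to 0.981 between sufficient arrays and at 0.78 to 0.848 across the sides; genes are not independent replicates. The tagged gene and its marker were not called. PHO4 had signals of 62.7 and 44.8 on the scarce arrays, in the order 0 and 0.01 mM, and of 76.3, 54.3 and 78.8 on the sufficient arrays, in the order 0.1, 1 and 10 mM, an order used throughout. TRP1 had 110.1 and 62.3 and then 109, 84.1 and 125. Both overlapped between the sides, with differences of 0.38 ± 0.26 and 0.34 ± 0.30 (log2, ± SE; adjusted p = 0.303 and 0.43 in limma). PHO4 was called higher with arrays at 1 median (0.70) and after quantile normalization (0.67).

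The 4 genes with the largest falls were 3 stress genes and 1 phosphate gene. HSP26, for a small heat shock protein that holds unfolded proteins in solution, had signals of 1121 and 905 and then 20.4, 10.6 and 11.1. It fell 72.6-fold, with a log2 difference of -6.18 ± 0.30 (SE, 5 arrays; adjusted p = 5.7e-05), with signals below background set to that level, as for all genes below. The scarce signals were far above the sufficient ones and did not overlap them. PHO5, the secreted acid phosphatase, had 1418 and 1222 and then 28.0, 22.0 and 24.4 and fell 53.4-fold (-5.74 ± 0.21; adjusted p = 5.48e-05). GPG1, for a partner of the G protein subunit Gpa2, had 442 and 305 and then 9.22, 8.67 and 7.29, and being below background on every sufficient array it fell at least 32.1-fold. GRE1, a hydrophilin gene of the desiccation response, had 748 and 172 and then 11.0, 9.45 and 8.13, and fell at least 31.4-fold; its 0 mM signal was several times that at 0.01 mM.

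GAD1, glutamate decarboxylase, had 495 and 352 and then 12.7, 15.8 and 15.2 and fell 28.8-fold. GSP2, which encodes a minor Ran GTPase, had 451 and 288 and then 11.5, 13.0 and 14.4 and fell 27.9-fold. SIP18, another hydrophilin gene, had 387 and 233 and then 10.5, 7.63 and 10.4 and fell at least 26.3-fold. In each of these the scarce arrays were well apart from the sufficient ones, which sat at or close to background. The mitochondrial protein genes FMP16 and OM45 fell 28.6-fold and 17.4-fold. DCS2, a relative of the scavenger decapping enzyme, fell 18.4-fold, and MSC1 fell 25.8-fold (adjusted p = 8.6e-05, 5.7e-05, 6.84e-05 and 5.7e-05).

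The largest rises were mostly in ribosomal protein genes and tRNA genes. RPL7B, a protein of the large ribosomal subunit, had 20.3 and 56.9 and then 423, 331 and 423 and rose 10.2-fold (3.35 ± 0.35; adjusted p = 0.000754). RPS7B of the small subunit had 48.0 and 65.1 and then 475, 489.7 and 489.5 and rose 8.67-fold (3.12 ± 0.21; adjusted p = 0.0002). Among genes outside translation, ATO3, a putative ammonium transporter, had 18.9 and 15.8 and then 91.1, 88.2 and 116 and rose 5.65-fold. The peptide transporter gene PTR2 had 18.4 and 17.1 and then 101, 91.0 and 70.9 and rose 4.88-fold. UTR2, a cell wall enzyme that links chitin to glucan, had 114 and 146 and then 624, 504 and 575 and rose 4.38-fold (adjusted p = 0.000505, 0.000645 and 0.00074). For all 5 genes the lowest sufficient signal was above the highest scarce one.

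**Figure D2:**
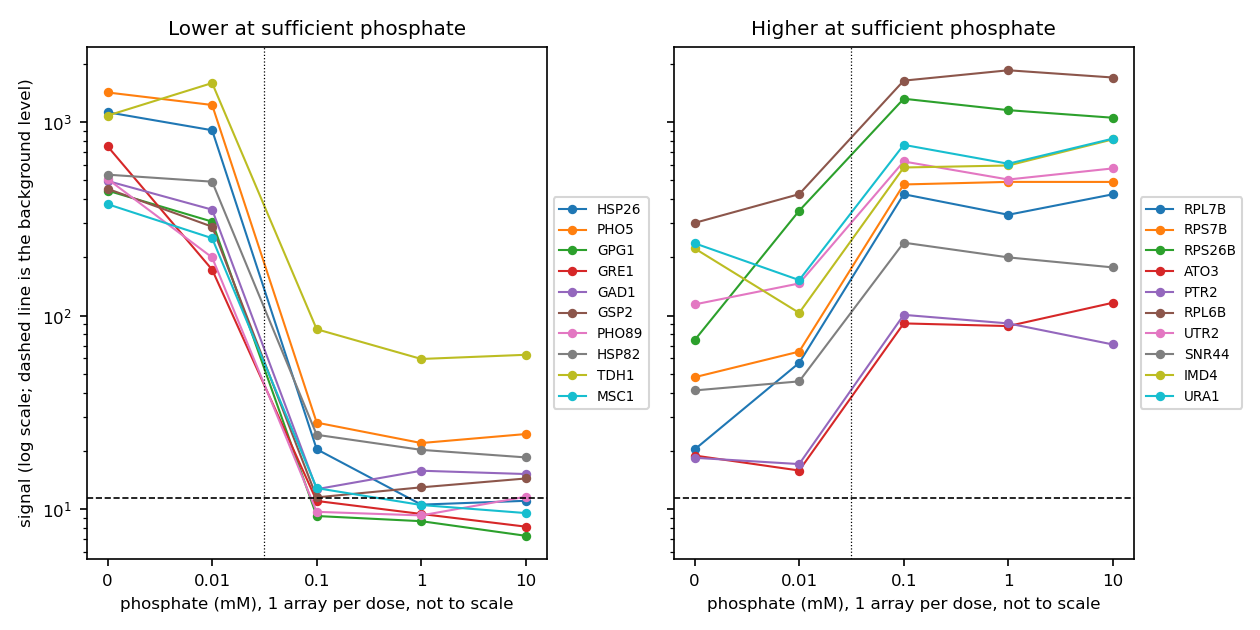
Deposited signal (vertical, log scale) of 10 genes that fell and 10 that rose, on the 5 arrays in dose order (horizontal, not to scale), with the background level of 11.4 dashed and the split between the sides dotted. The step lies between 0.01 and 0.1 mM, GRE1 and RPS26B also differ between the scarce arrays, and levels of different probe sets are not comparable.

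Phosphate genes. All 15 fitted members of the list of Pho4 targets fell, beside 22% of all genes, with a relative median of -2.88; 4 further members were not fitted. These targets have been described from these arrays before and are no independent evidence. After PHO5, the largest falls were in the uptake genes. PHO89, a sodium-coupled phosphate transporter, had 507 and 199 and then 9.69, 9.29 and 11.6 and fell 27.7-fold. The high-affinity transporter gene PHO84 had 1370 and 1157 and then 172, 27.8 and 27.4 and fell 24.8-fold (-4.63 ± 0.75; adjusted p = 0.00433). PHO84 was the target with the widest spread on the sufficient side, where its signal at 0.1 mM was several times that at 1 and 10 mM. SPL2, which restrains low-affinity uptake, had 209.8 and 209.6 and then 2.81, 2.42 and 1.97 and fell at least 18.3-fold. GIT1, a transporter of glycerophosphoinositol, fell at least 18.8-fold, and the list member with the smallest difference was PHO8, the vacuolar alkaline phosphatase (-1.12 ± 0.26).

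Of 11 fitted genes of Pho85 signalling and low-affinity uptake, 4 fell (36.4%) and 1 rose (9.09%), beside 22% and 11.4% of all genes. The relative median was -0.26, and -0.61 to -0.18 over the other settings. The low-affinity transporter gene PHO90 rose against the direction of PHO84: it had 129.5 and 116 and then 397, 274 and 275, a rise of 2.53-fold (adjusted p = 0.00641). The other low-affinity transporter genes PHO87 and PHO91 were not called, with differences of -0.33 ± 0.22 and -0.27 ± 0.20. The kinase gene PHO85 had 169 and 181 and then 59.5, 55.1 and 45.6 and fell 3.29-fold (adjusted p = 0.00155). DDP1, a polyphosphate and diphosphoinositol phosphatase, had 143 and 141 and then 25.9, 34.7 and 34.3 and fell 4.52-fold. SIW14, which removes phosphate from inositol pyrophosphates, fell 2.33-fold. Of 9 other cyclins of Pho85, PCL5 and PCL9 fell, by 1.85-fold and 1.98-fold, and 7 were not called, a share of 22.2% beside 22% of all genes.

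Of 10 fitted genes of glycerol metabolism 6 fell and 0 rose (relative median -0.83; -1.41 to -0.58 over the other settings). GPP2, which frees phosphate from glycerol 3-phosphate, had 391 and 320.3 and then 44.2, 26.4 and 43.4 and fell 9.56-fold. GPD1, the dehydrogenase one step before it, had 454 and 297 and then 107, 58.5 and 62.7 and fell 5.02-fold. GCY1, a glycerol dehydrogenase, fell 9.46-fold and the mitochondrial GUT2 3.5-fold (adjusted p = 0.000442, 0.00258, 0.000636 and 0.0156).

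Stress genes and chaperones. Of 33 fitted targets of Msn2 and Msn4, 31 fell and 0 rose, with a relative median of -2.76. XBP1 and HOR7 were not called (-0.57 ± 0.29 and -0.29 ± 0.21, with XBP1 below background on every sufficient array and HOR7 at 2646 and 2962 and then 2008, 2412 and 2488). DDR2, a stress gene without a known biochemical role, had 2092 and 2082 and then 155, 132 and 145 and fell 14.5-fold. The membrane protein gene HSP12 had 2070 and 2864 and then 648, 517 and 504 and fell 4.41-fold. The genes of the factors themselves were not called: MSN2 had 44.9 and 21.6 and then 30.3, 29.4 and 32.5, and MSN4 had 32.2 and 18.9 and then 19.7, 13.9 and 15.9. Both overlapped between the sides, with differences of -0.02 ± 0.31 and -0.59 ± 0.29.

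Chaperones divided by kind. Among 7 small heat shock proteins and disaggregases 5 fell (relative median -3.36): HSP42, the other small heat shock protein of the cytosol, had 408 and 192 and then 21.7, 13.8 and 20.9 and fell 15.2-fold. The disaggregase gene HSP104 had 259 and 196 and then 26.2, 18.5 and 15.5 and fell 11.5-fold, and its mitochondrial counterpart HSP78 fell at least 12.4-fold. In the Hsp90 list 5 of 13 fell (38.5%) and 1 rose (7.69%), beside 22% and 11.4% of all genes (relative median -0.33, and -0.58 to -0.20 over the other settings). HSP82, the stress-induced Hsp90 gene, had 534 and 491 and then 24.2, 20.2 and 18.5 and fell 24.5-fold. The co-chaperone genes STI1, AHA1 and CPR6 fell 5.80-fold, 4.40-fold and 2.91-fold, while TAH1, a partner of Hsp90 in assembling box C/D particles, rose 1.79-fold. The TAH1 call was lost in 6 settings. In the cytosolic Hsp70 list 7 of 13 fell and 1 rose (relative median -0.92). SSA4 fell 16.9-fold, SSE2 9.54-fold and the abundant SSA1 4.59-fold, from 2815 and 2759 to 687, 513 and 634, and the ribosome-bound SSZ1 rose 1.82-fold.

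Folding machines outside the heat shock group had other counts. For the chaperonin CCT and prefoldin 0 of 14 fell and 3 rose (relative median 0.60), a share of 21.4% higher beside 11.4% of all genes. Those that rose were the prefoldin genes PFD1, GIM4 and GIM3 (2.04-fold, 1.94-fold and 1.74-fold). For endoplasmic reticulum chaperones 3 of 15 fell (20%, beside 22% of all genes), KAR2, PDI1 and CNE1, by 1.63-fold, 1.58-fold and 1.65-fold. The relative median of that list was 0.01, between -0.13 and 0.07 over the other settings. Of 6 mitochondrial chaperones 2 fell (33.3%, beside 22% of all genes) and 0 rose, with a relative median of -0.52 (-0.71 to -0.32 over the other settings). Those that fell were MDJ1, a partner of the matrix Hsp70, by 2.19-fold and SSC1, that Hsp70, by 1.75-fold. Calls were lost in 10 settings for GIM4, 9 for SSC1, 8 for CNE1 and 7 each for KAR2 and PDI1. They were lost in 5 for GIM3, 4 for MDJ1 and 3 for PFD1.

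Stored carbohydrate. All 9 fitted trehalose genes fell (relative median -1.28; -1.40 to -0.81 over the other settings), those for synthesis and those for breakdown. PGM2, phosphoglucomutase, which makes the glucose 1-phosphate for both stores, had 201 and 122 and then 18, 20.5 and 21.9 and fell 7.78-fold. The synthase gene TPS1 had 297 and 249 and then 82.8, 62.5 and 59.4 and fell 4.03-fold. The neutral trehalase genes NTH1 and NTH2, for the breakdown of trehalose, fell 2.57-fold and 2.72-fold. Of 7 fitted glycogen genes 6 fell (relative median -1.59, and -1.94 to -0.82 over the other settings), and 5 further members were not fitted. GPH1, PIG2 and GLG1 passed the filter through the scarce side alone, so their direction was fixed by the filter. GLC3, the branching enzyme, had 249 and 174 and then 16.5, 9.91 and 10.6 and fell 16.1-fold. The phosphorylase gene GPH1 fell at least 7.50-fold, the synthase gene GSY2 5.23-fold and the debranching enzyme gene GDB1 3.37-fold. As with trehalose, genes for making and for using the store moved the same way.

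Redox enzymes. Of 28 fitted genes 16 fell and 0 rose (relative median -0.86). SOD2, the superoxide dismutase of the mitochondrial matrix, had 305 and 223 and then 46.1, 32.4 and 33.2 and fell 7.10-fold. PRX1, a mitochondrial peroxiredoxin, fell 8.10-fold, the mitochondrial thioredoxin TRX3 5.79-fold and the glutathione peroxidase GPX1 8.28-fold. The cytosolic catalase gene CTT1 had 167 and 47.6 and then 10.5, 12.5 and 10.6, so that the scarce arrays themselves differed several-fold, and fell 7.56-fold. The cytosolic superoxide dismutase SOD1 and the thioredoxin reductase TRR1 were not called, with differences of -0.33 ± 0.23 and 0.04 ± 0.20.

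Signalling. Of 28 fitted genes of the protein kinase A, TOR and Snf1 pathways 10 fell (35.7%, beside 22% of all genes) and 0 rose. The relative median was -0.39, and -0.09 without the 0 mM array. PDE1, which breaks down cyclic AMP, had 164 and 127 and then 24.8, 20 and 25.4 and fell 6.21-fold. The kinase subunit gene TPK2 fell 4.09-fold, the Snf1 subunit gene SIP2 3.73-fold and LST8, a shared subunit of both TOR complexes, 2.62-fold (adjusted p = 0.000419, 0.00329, 0.00145 and 0.024).

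Vacuole, autophagy and protein turnover. All 11 fitted vacuolar hydrolases fell (relative median -1.56). APE1, an aminopeptidase delivered to the vacuole by selective autophagy, had 242 and 292 and then 27.3, 21.1 and 30.2 and fell 10.2-fold. The mannosidase gene AMS1 had 200.1 and 101 and then 19.0, 14.9 and 16.9 and fell 8.43-fold. The protease B gene PRB1 fell 4.48-fold, and PEP4, which activates the other proteases, 3.14-fold. Of 19 fitted autophagy genes 12 fell and 1 rose (relative median -1.29, and -0.36 with no filter on dim probe sets), and 11 further members were not fitted. ATG39, ATG31, ATG7, ATG11 and ATG12 passed the filter through the scarce side alone, so their direction was fixed by the filter. ATG19 and ATG34, the receptors that carry APE1 and AMS1, fell 8.26-fold and 9.95-fold. ATG8, the lipid-linked protein of the autophagosome, had 182 and 169.9 and then 27.0, 25.7 and 20.6 and fell 7.25-fold, and ATG27, a membrane protein that travels with Atg9, rose 1.97-fold. The vacuolar proton pump that acidifies the same compartment had 0 of 18 lower and 1 higher, VMA16 (1.99-fold), a call lost in 8 settings. The relative median of that list was 0.14, and -0.02 after quantile normalization.

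Of 36 proteasome genes 10 fell (27.8%, beside 22% of all genes) and 0 rose, with sizes between 1.55 and 2.25-fold (relative median -0.39). RPT4, an ATPase of the cap, had 184 and 184 and then 81.6, 77.0 and 87.4 and fell 2.25-fold. Both scarce arrays were above all sufficient arrays for 24 of the 36, beside 37.3% of all genes. In the ubiquitin list 11 of 36 fell (30.6%, beside 22% of all genes) and 0 rose (relative median -0.23). The conjugating enzyme gene UBC8, which directs the breakdown of a gluconeogenic enzyme, had 161 and 98.9 and then 20.5, 18.6 and 17.4 and fell 6.72-fold. The polyubiquitin gene UBI4 fell 3.88-fold.

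**Figure D3:**
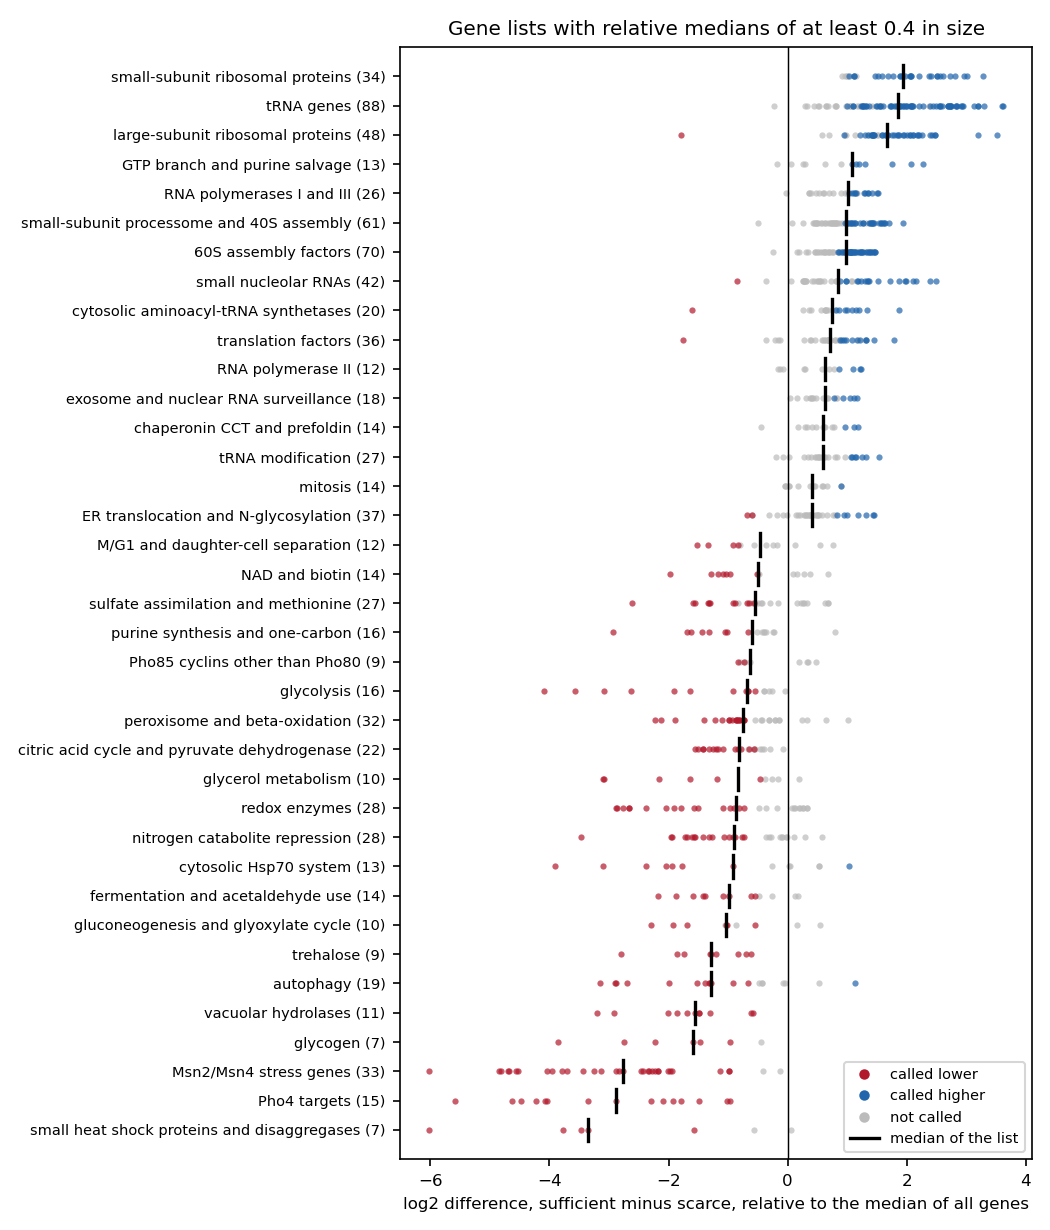
Log2 difference of each fitted member, sufficient minus scarce and relative to the median of all genes (horizontal), for every list of at least 7 fitted members whose relative median was 0.4 or more in size (vertical; number of fitted members in brackets). The phosphate, storage and vacuolar lists of that size and most stress lists lie to the left in the deposited scaling, and translation lists to the right. Lists that also lie to the right include the chaperonin CCT and prefoldin, the GTP branch and ER translocation. Single members of translation lists lie on the other side, such as RPL15B, HEF3 and GRS2.

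Ribosomal proteins. Of 48 fitted proteins of the large subunit 39 rose and 1 fell (relative median 1.66), and of 34 of the small subunit 28 rose and 0 fell (1.94). Most yeast ribosomal proteins have a near-identical second gene; 34 genes of the large subunit list had no fitted probe set of their own, and values of fitted pairs may hold signal of the other copy. RPS26B had 74.6 and 348 and then 1316, 1149 and 1050 and rose 7.24-fold. RPL6B had 301 and 423 and then 1632, 1846 and 1694 and rose 4.83-fold. RPS22A had 434 and 2066 and then 4367, 4829 and 4260 and rose 4.73-fold. In all 3 the 0.01 mM array lay above the 0 mM array, most in RPS22A and RPS26B. Without the array at 0 mM the relative medians were 0.88 and 1.2, and without that at 0.01 mM 2.42 and 2.57. RPL15B went the other way: it had 710.3 and 722 and then 119, 258 and 208 and fell 3.86-fold (adjusted p = 0.00512). Its partner RPL15A had 205 and 640.5 and then 1422, 1269 and 1347 and rose 3.71-fold (adjusted p = 0.0156).

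Ribosome assembly. Of 61 fitted genes for the small-subunit processome and 40S assembly 27 rose and 0 fell (relative median 0.99), and of 70 for 60S assembly 38 rose and 0 fell (0.99). NOP56, a core protein of box C/D particles, had 96.0 and 104 and then 265, 286 and 285 and rose 2.78-fold. The helicase gene ROK1 had 26.1 and 19.4 and then 97.3, 54.2 and 85.6 and rose 3.41-fold, and NSA1 of pre-60S particles rose 2.49-fold. The scarce arrays were ordered differently in these lists than in ribosomal protein genes. Relative to all genes, the median at 0.01 mM minus 0 mM was -0.39 and -0.42 for the assembly lists and 1.46 and 1.45 for the large and small ribosomal proteins. With 1 array per dose that contrast has no replicate error.

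**Figure D4:**
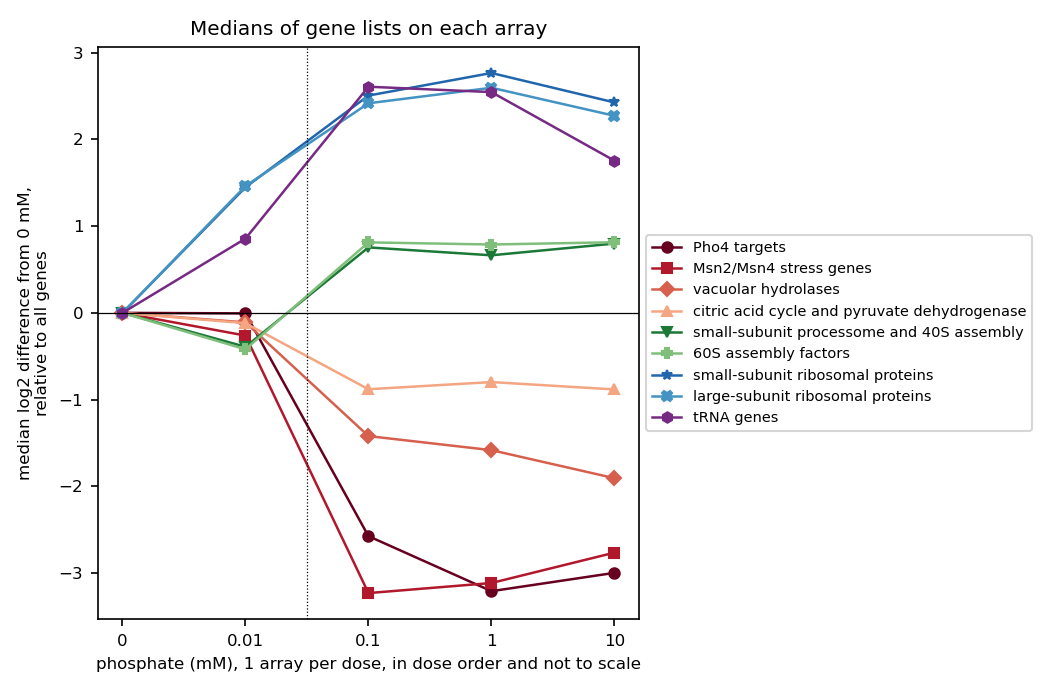
Median log2 difference from the 0 mM array, relative to that of all genes (vertical), for 9 lists on the 5 arrays in dose order (horizontal, not to scale), in the deposited scaling, with the split between the sides dotted. Ribosomal protein and tRNA lists are already above 0 at 0.01 mM, the assembly lists are below 0 there and above it from 0.1 mM, and the stress and phosphate lists drop at 0.1 mM.

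Polymerases and translation. Of 26 fitted genes of RNA polymerases I and III, which make ribosomal RNA, 5S RNA and tRNA, 12 rose and 0 fell (relative median 1.01). RPA34, a subunit of polymerase I alone, had 99.6 and 76.1 and then 212, 201 and 262 and rose 2.57-fold, and RPC25 of polymerase III rose 2.52-fold. Of 12 RNA polymerase II genes 4 rose (33.3%, beside 11.4% of all genes), with a relative median of 0.63. They were RPB5, RPB8, RPB9 and RPO26, of which RPB5, RPB8 and RPO26 are shared by all 3 polymerases (2.11-fold, 1.91-fold and 1.62-fold). The RPB8 call was lost in 7 settings and the RPO26 call in 5. Of 36 translation factors 11 rose and 1 fell (relative median 0.71): RLI1, which recycles ribosomes, had 76.3 and 41.8 and then 196, 149.6 and 182 and rose 3.10-fold. Of 20 cytosolic aminoacyl-tRNA synthetases 9 rose and 1 fell (0.74), with TYS1, for tyrosine, rising 3.28-fold. Of 27 tRNA modification genes 7 rose and 0 fell (0.60), among them TRM1 by 2.60-fold. Of 18 genes of the exosome and nuclear RNA surveillance 5 rose and 0 fell (0.63). Of 25 genes of messenger RNA decay 1 rose and 1 fell, below the shares of all genes (0.13, and 0.04 to 0.23 over the other settings).

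Nuclear transport had 9 of 47 genes higher (19.1%) and 2 lower (4.26%), beside 11.4% and 22% of all genes (relative median 0.39, and 0.18 to 0.52 over the other settings). KAP123, which imports ribosomal proteins, had 94.6 and 52.2 and then 186, 174 and 182 and rose 2.57-fold. KAP122 rose 2.77-fold. The genes that fell were GSP2 and POM33, a pore membrane protein (2.45-fold). Splicing factors had 6 of 41 lower and 1 higher, below the shares of all genes.

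Noncoding RNA. Of 88 fitted tRNA genes 65 rose and 0 fell, with a relative median of 1.86; 211 further tRNA genes had no fitted probe set of their own. tRNA genes of a family are near-identical, so the value of 1 gene may hold signal of its copies. YNCM0035C had 5.75 and 87.8 and then 295, 377 and 382 and rose 11.0-fold (3.46 ± 0.73; adjusted p = 0.0117). YNCE0013W had 38.0 and 39.8 and then 251, 264 and 184 and rose 5.93-fold (2.57 ± 0.23; adjusted p = 0.000505). These genes show how the family varied: in the first the 0 mM array was below background and the 0.01 mM array lay between it and the sufficient arrays, and in the second the scarce arrays were alike. Relative to all genes the median tRNA gene was higher by 0.86 at 0.01 than at 0 mM, and lower by 0.65 at 10 than at 0.1 mM (log2). The relative median was 1.3 without the array at 0 mM and 2.28 without that at 0.01 mM. Of the 10 called genes with the widest spread within a side, 9 were tRNA genes.

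Of 42 fitted small nucleolar RNAs, which guide the modification and cutting of ribosomal RNA, 19 rose and 1 fell (relative median 0.85; 0.40 to 1.11 over the other settings). SNR44 had 41.0 and 45.7 and then 238, 199.6 and 177 and rose 4.70-fold. SNR58 was below background on both scarce arrays, at 2.30 and 6.88, had 57.3, 70.7 and 46.9 on the others and rose at least 5.03-fold. SNR45 had 50.8 and 56.7 and then 36.7, 22.7 and 23.1 and fell 2-fold. The telomerase RNA TLC1, added after its value was seen, had 24.1 and 35.8 and then 86.4, 64.6 and 63.0 and rose 2.41-fold (adjusted p = 0.000607, 0.000683, 0.0267 and 0.0106).

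Carbon metabolism. Of 16 fitted glycolysis genes 11 fell and 0 rose (relative median -0.68; with quantile normalization -1.23). The gene TDH1 encodes an isoform of glyceraldehyde-3-phosphate dehydrogenase; it had 1077 and 1586 and then 85.0, 59.7 and 62.7 and fell 19.1-fold. The glucokinase gene GLK1 had 759 and 674 and then 123, 59.5 and 58.6 and fell 9.49-fold. The fermentation list had 9 of 14 lower and 0 higher (-0.99; -1.12 to -0.65 over the other settings), led by the aldehyde dehydrogenase genes ALD3 (at least 5.05-fold) and ALD4 (4.11-fold). Citric acid cycle genes fell in 14 of 22 cases and rose in 0 (-0.81): KGD2, of the 2-oxoglutarate dehydrogenase complex, had 163 and 111 and then 59.5, 30.4 and 38.0 and fell 3.28-fold. CIT1, citrate synthase, had 314 and 339 and then 69.4, 154 and 103 and fell 3.16-fold. In the respiratory chain and ATP synthase list the relative median was -0.10, between -0.33 and -0.05 over the other settings. The list had 11 of 39 genes lower (28.2%, beside 22% of all genes) and 0 higher. Its leading members NDE2, COX5B and CYC7 are minor isoforms (at least 7.82-fold, 4.90-fold and 2.84-fold), and STF1, a regulator of the ATP synthase inhibitor, fell 6.17-fold.

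In gluconeogenesis and the glyoxylate cycle 6 of 10 fell and 0 rose (relative median -1.03; -1.24 to -0.59 over the other settings). IDP2, cytosolic isocitrate dehydrogenase, had 101 and 43.9 and then 12.1, 12.8 and 11.6 and fell 5.46-fold. MLS1, malate synthase, fell at least 4.25-fold and FBP1, fructose bisphosphatase, at least 3.61-fold, both below background at sufficient phosphate. Peroxisome genes had 19 of 32 lower and 0 higher (relative median -0.75). POT1, the last enzyme of beta-oxidation, had 59.1 and 53.7 and then 10.5, 5.96 and 11.7 and fell 4.89-fold, and SPS19, needed for unsaturated fatty acids, fell 5.24-fold. Genes for building the organelle were among them, such as PEX22 (4.13-fold) and PEX29 (at least 2.94-fold). Peroxisomal catalase CTA1 was near background on every array at 12.7 and 12 and then 14.6, 12.5 and 14.3 and was not called. Of 14 hexose transport and glucose sensing genes 2 fell, a share of 14.3% beside 22% of all genes. HXT5, a transporter of slow-growing cells, had 237 and 74.9 and then 12.4, 8.53 and 8.51 and fell 11.3-fold, and MTH1, a repressor of transporter genes, fell 3.88-fold. The relative median of that list, -0.21, was 0.19 without the 0 mM array.

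Isoforms. In several pairs of paralogs the minor or stress-induced gene fell and its partner did not, or fell less. The pairs were picked after values were seen, so their number is no result, and the difference within a pair was not tested; the ratio of the first to the second gene on the same arrays is not altered by scaling a whole array, apart from the background level. For 6-phosphogluconate dehydrogenase of the pentose phosphate pathway, GND1 had 230.5 and 287 and then 596, 559.9 and 604 and rose 2.28-fold. GND2 had 320.2 and 126 and then 8.33, 4.07 and 4.27 and fell at least 17.6-fold. The ratio of GND1 to GND2 was at least 40-fold higher at sufficient phosphate. In the same pathway TKL1 rose 1.71-fold and TKL2 fell at least 3.69-fold, and SOL4 fell 10.7-fold while SOL3 was not called (0.17 ± 0.20). The TKL1 call was lost in 6 settings, and whichever array was left out. The ratios of TKL1 to TKL2 and of SOL3 to SOL4 were at least 6.32-fold and 12-fold higher. ZWF1, the first enzyme of the pathway, fell 3.88-fold.

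For hexokinase, HXK2 had 565 and 406 and then 492, 373 and 394 and was not called, while HXK1 had 280.0 and 201 and then 20.5, 17.5 and 15.9 and fell 13.3-fold. The ratio of HXK2 to HXK1 was 11.6-fold higher at sufficient phosphate. For enolase, ENO2 had 2279 and 1859 and then 1778, 1536 and 1011 and was not called, and ENO1 had 2557 and 1849 and then 400.2, 296 and 258 and fell 6.96-fold, a ratio change of 4.74-fold. Of the pyruvate kinase genes, CDC19 was 1.63-fold and PYK2 at least 3.47-fold lower, with a ratio change of at least 2.12-fold. The CDC19 call was lost in 9 settings, and whichever array was left out. The Ran GTPase gene GSP1 had 488 and 339 and then 262, 529 and 423 and was not called, while GSP2 fell, and the ratio changed 26.6-fold. For Hsp90, HSC82 had 1342 and 1273 and then 847, 744 and 684 and fell 1.73-fold, and the ratio of HSC82 to HSP82 changed 14.2-fold.

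The same was measured outside carbon metabolism. GDH1, the glutamate dehydrogenase of growing cells, had 809 and 938 and then 697, 737 and 760.4 and was not called, while GDH3 had 216 and 119 and then 11.6, 9.95 and 16.2 and fell 12.4-fold, a ratio change of 10.4-fold. Of the orotate phosphoribosyltransferases of pyrimidine synthesis, URA5 was not called (0.18 ± 0.20) and URA10 had 104 and 76.8 and then 13.1, 8.39 and 11.3 and fell 7.48-fold, a ratio change of 8.46-fold. In translation, HEF3 fell 3.78-fold and GRS2 fell 3.40-fold, while YEF3 was not called (0.43 ± 0.20) and GRS1 rose 1.79-fold. The ratios of YEF3 to HEF3 and GRS1 to GRS2 were 5.08-fold and 6.10-fold higher. Tropomyosin ran the other way: the major gene TPM1 had 316 and 316 and then 156, 197 and 198 and fell 1.73-fold. That call was lost in 6 settings, and whichever array was left out. The minor gene TPM2 had 28.5 and 19.7 and then 93.1, 60.3 and 76.5 and rose 3.18-fold (adjusted p = 0.0259 and 0.00433), and the log2 ratio of TPM1 to TPM2 changed by -2.46. In each pair named, the log2 ratio of the partners did not overlap between the sides. The pairs were picked after their values were seen, so this was close to fixed by the choice and is no support.

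**Figure D5:**
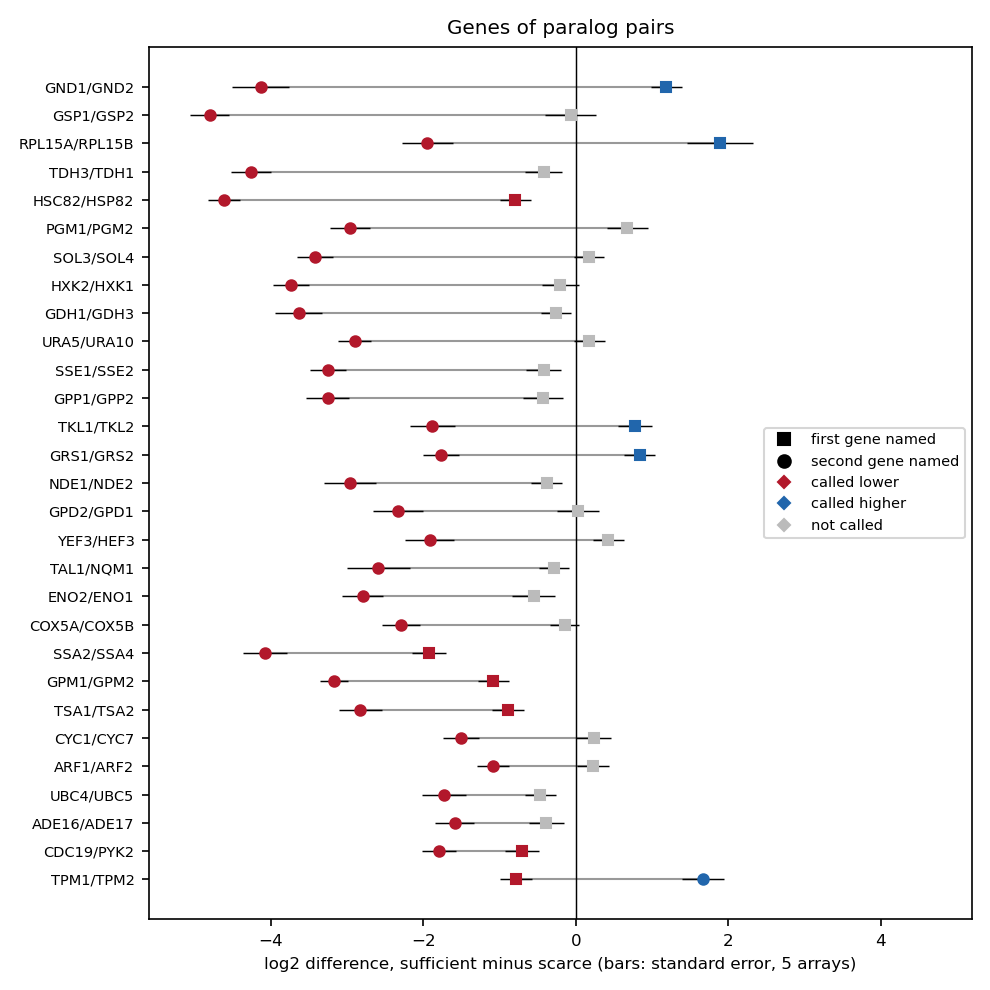
Log2 difference, sufficient minus scarce, with its standard error over 5 arrays (horizontal, deposited scaling), for both genes of 29 paralog pairs (vertical), coloured by call and sorted by the gap. In GND1/GND2, TKL1/TKL2, GRS1/GRS2 and RPL15A/RPL15B the partners were called in opposite directions with the first one higher, and in TPM1/TPM2 with the second one higher. The calls of TKL1, GRS1, RPL15A, RPL15B and TPM1 were each lost in 3 or more settings.

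Nitrogen, amino acids and nucleotides. Of 28 fitted genes under nitrogen catabolite repression 17 fell and 0 rose (relative median -0.90). UGA1, which breaks down GABA, the product of GAD1, had 172 and 123 and then 41.2, 26.8 and 34.5 and fell 4.33-fold, and UGA2 of the next step fell 3.40-fold. The proline oxidase gene PUT1 had 58.4 and 84.3 and then 20.4, 17.4 and 19.6 and fell 3.68-fold, and the NAD-dependent glutamate dehydrogenase gene GDH2 fell 4.29-fold. The general amino acid permease gene GAP1 fell 2.20-fold. Of 65 amino acid synthesis genes 11 fell (16.9%) and 4 rose (6.15%), below the shares of all genes. The relative median of that list was 0.06, and -0.12 after quantile normalization. LYS20, the first enzyme of lysine synthesis, had 954 and 776 and then 283, 305 and 286 and fell 2.96-fold, and LYS1, the last, fell 3.12-fold. HIS3 fell 3.43-fold. Among 14 permeases PTR2 and BAP2 rose (2.29-fold for BAP2) and the dicarboxylic amino acid permease DIP5 fell 2.92-fold; 14.3% were higher and 7.14% lower, beside 11.4% and 22% of all genes.

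In sulfate assimilation and methionine synthesis 11 of 27 fell and 0 rose (relative median -0.54; -0.62 to -0.33 over the other settings). MET6, methionine synthase, had 384 and 470.1 and then 81.1, 37.8 and 78.4 and fell 6.83-fold. MET17, which takes up sulfide, had 489.6 and 567 and then 129, 127 and 252 and fell 3.29-fold. Purine synthesis and one-carbon genes had 8 of 16 lower and 0 higher (-0.59). The glycine cleavage gene GCV2 went from 248 and 146 to 17.5, 25.4 and 25.2, a fall of 8.51-fold, and GCV1 of the same complex fell 3.44-fold. MTD1, which oxidizes methylene-tetrahydrofolate, fell 3.62-fold, while its mitochondrial relative MIS1, which is in no list, rose 3.83-fold, from 74.7 and 39.5 to 207, 207 and 209.8.

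In the branch from IMP to GTP and in purine salvage 7 of 13 genes rose and 0 fell (relative median 1.08; 0.70 to 1.11 over the other settings). IMD4, an IMP dehydrogenase, had 222 and 103 and then 581, 595 and 812 and rose 4.33-fold. IMD2 had 145 and 174 and then 617, 577 and 603 and rose 3.77-fold; the IMD genes are close in sequence and their probe sets may share signal. GUA1, the next enzyme, had 383 and 262 and then 604, 709 and 783 and rose 2.20-fold. ADE12, the first step of the other branch, to AMP, had 392 and 501 and then 249.9, 243 and 258 and fell 1.77-fold. The difference between the branches was not tested. Of 15 pyrimidine genes 4 rose (26.7%) and 1 fell (6.67%), beside 11.4% and 22% of all genes (relative median 0.34, and 0.21 to 0.43 over the other settings). URA1, dihydroorotate dehydrogenase, had 236 and 152 and then 761, 608 and 819 and rose 3.81-fold, and the salvage gene FUR1 rose 1.88-fold.

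Metals and vitamins. Of 12 zinc and copper genes 2 rose (16.7%, beside 11.4% of all genes) and 0 fell. ZRC1, which loads zinc into the vacuole, rose 2.70-fold and the high-affinity importer ZRT1 had 117 and 75.5 and then 312, 216 and 232 and rose 2.66-fold. Of 24 iron genes 3 fell (12.5%) and 2 rose (8.33%), both below the shares of all genes, 22% and 11.4%. FET3 and FTR1, the oxidase and permease that work as a pair, rose 2.92-fold and 1.69-fold; FET3 had 72.9 and 102 and then 183, 244 and 355. HMX1, heme oxygenase, fell 2.73-fold and the copper chaperone gene ATX1 1.80-fold. The calls of FTR1 and ATX1 were each lost in 7 settings. The relative medians of the zinc and copper list and of the iron list were -0.11 and 0.00. Each of these medians took both signs over the other settings. In vitamin synthesis, SNZ1 and SNO1, neighbours that make pyridoxine, fell 5.17-fold and 6.47-fold. Of 14 genes of NAD and biotin 7 fell and 0 rose (-0.50): BNA2, the first step from tryptophan to NAD, had 166 and 68.5 and then 29.9, 18.4 and 25.7 and fell 4.41-fold.

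Lipids. Of 19 fatty acid and triacylglycerol genes 3 rose (15.8%) and 2 fell (10.5%), beside 11.4% and 22% of all genes. ELO2, of fatty acid elongation, had 52.9 and 56.8 and then 235, 178 and 194 and rose 3.67-fold, and ELO3 of the same process rose 2.64-fold. The third was the fatty acid synthase subunit gene FAS2 (1.91-fold), a call lost in 7 settings. The lipase gene TGL3, which breaks down stored fat, fell 2.38-fold. Of 24 sphingolipid genes 5 rose (20.8%) and 2 fell (8.33%), beside 11.4% and 22% of all genes. LCB2, of the first enzyme of the pathway, had 151 and 185 and then 446, 336 and 390.4 and rose 2.32-fold, IPT1, of its last step, rose 2.56-fold, and the ceramidase gene YDC1, which runs in reverse, had 290.0 and 297 and then 96.0, 78.7 and 86.1 and fell 3.39-fold. Among 23 phospholipid genes 3 rose and 3 fell, 13% each way beside 11.4% and 22% of all genes; the inositol and choline transporters ITR1 and HNM1 rose 2.21-fold and 2.32-fold, and choline kinase CKI1 fell 3.31-fold. Ergosterol genes had 2 of 27 in each direction, below the shares of all genes. Those that rose were ECM22, a regulator (2.57-fold), and ERG4, the last enzyme (2.05-fold).

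Cell cycle and mating type. Of 37 DNA replication genes 2 fell and 2 rose, and of 14 cyclins and G1 regulators CLB3 rose (1.97-fold, a call lost in 6 settings) and 0 fell. Among 14 mitosis genes ESP1, separase, rose 1.66-fold, a call lost in 8 settings, and 0 fell. These counts lie below the shares of all genes, 22% lower and 11.4% higher. Of 4 histone genes HTB2 rose (25%, beside 11.4% of all genes), a call lost in 3 settings. Genes of the M/G1 interval and daughter cells had 4 of 12 lower (33.3%, beside 22% of all genes). The relative median of that list was -0.47, and -0.12 without the 0 mM array. ASH1, a repressor of the daughter cell, had 229 and 87.2 and then 56.4, 50.3 and 44.3 and fell 2.82-fold, and RME1 fell 3.23-fold. Calls were lost in 5 settings for ASH1 and in 7 for PCL9, another of the 4. The labels do not give the mating type. Of the 4 alpha-specific genes none passed the filter. Of 16 fitted a-specific and haploid mating genes 3 fell (18.8%) and 1 rose (6.25%), beside 22% and 11.4% of all genes. The relative median of that list, 0.11, took both signs over the other settings. The a-factor gene MFA1 had 508 and 634 and then 208, 103 and 243 and fell 3.27-fold. Its call was lost without the 0 mM array, without the 0.01 mM array and with no filter on dim probe sets. The a-specific gene STE6 rose (log2 difference 1.14). The receptor gene STE2 was above background on every array at 82.4 and 50.3 and then 117, 72.0 and 78.9. Of 16 meiosis and sporulation genes 2 passed the filter and neither was called.

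Surface and secretion. The ER translocation and glycosylation list had 7 of 37 higher (18.9%) and 2 lower (5.41%), beside 11.4% and 22% of all genes. Its relative median was 0.40. The mannosyltransferase gene PMT4 had 46.8 and 97.6 and then 163, 163 and 174 and rose 2.46-fold, and SBH1 of the translocation channel rose 2.23-fold. Of 32 cell wall genes 5 rose (15.6%) and 3 fell (9.38%), beside 11.4% and 22% of all genes. The relative median of that list took both signs over the other settings. PIR3, a covalently bound wall protein, had 401 and 168 and then 35.6, 29.0 and 24.3 and fell 8.84-fold. Of 24 actin genes 7 fell (29.2%, beside 22% of all genes) and 1, TPM2, rose. ABP1, an actin-binding protein of cortical patches, had 87.0 and 82.9 and then 30.6, 29.7 and 32.5 and fell 2.75-fold. Drug and cation transport was mixed, with 6 of 18 lower (33.3%) and 3 higher (16.7%), beside 22% and 11.4% of all genes. The multidrug pump gene PDR5 had 24.5 and 13.4 and then 70.1, 70.1 and 71.5 and rose 2.37-fold, and the polyamine exporter gene TPO1 rose 2.25-fold, while the pump gene PDR10 fell 2.40-fold. Chromatin remodellers and Mediator had 1 or 2 calls in each direction, below the shares of all genes. The calls for remodellers were SNF2, which fell 1.88-fold, and RSC2 and INO80, which rose 2.25-fold and 1.53-fold. Those of SNF2 and INO80 were each lost in 8 settings and that of RSC2 in 7.

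Other mitochondrial lists had few calls. Proteins of the mitochondrial ribosome had 8 of 73 lower and 2 higher, below the shares of all genes. Their relative median was -0.10, between -0.21 and 0.006 over the other settings. Protein import had 4 of 30 higher (13.3%, beside 11.4% of all genes), among them the receptor gene TOM20 (2-fold), and 1 lower, MIA40 (1.95-fold). The relative median of that list, 0.27, was -0.04 without the 0 mM array.

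Genes in no list. The lists held 711 of the 1611 called genes; 701 genes that fell and 199 that rose were in none. Of those that fell, SUE1, needed for the breakdown of unstable cytochrome c, had 219 and 134 and then 12.2, 9.21 and 12.2 and fell 14.3-fold. EGO4, of the vacuolar EGO complex family, had 476 and 658 and then 50.2, 39.5 and 36.7 and fell 13.4-fold. HPF1, a mannoprotein of the wall, had 436 and 288 and then 30.0, 31.5 and 22.5 and fell 12.8-fold. In all 3 the scarce arrays lay well above the sufficient ones. GTT1, a glutathione transferase, had 614 and 738 and then 85.0, 79.1 and 65.7 and fell 8.84-fold. SDP1, a phosphatase of the cell integrity kinase Slt2, was below background at sufficient phosphate and fell at least 8.78-fold, as did YRO2, a membrane protein of the Hsp30 family (at least 10.1-fold). Some genes without a standard name also fell: YCL048W-A fell at least 12.9-fold, YOR289W 10.3-fold and YDL124W 9.66-fold.

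Of the genes in no list that rose, STM1, a ribosome-binding protein, had 279 and 409.5 and then 1254, 1149 and 1114 and rose 3.46-fold. SAM4, which makes methionine from homocysteine, had 111 and 81.4 and then 330.2, 284 and 325 and rose 3.29-fold. RSR1, a small GTPase of bud site selection, had 54.0 and 61.9 and then 218, 179.8 and 182 and rose 3.25-fold. Ribosome-related genes outside the lists were also found here, such as REX4 (3.19-fold) and the helicase gene DBP3 (3.15-fold). YIL171W, which RefSeq marks as a pseudogene with the synonym HXT12, had 8 and 16 and then 89.2, 83 and 175 and rose 8.06-fold; members of the hexose transporter family are close in sequence and may share signal. YJR124C, a gene without a standard name, rose 4.97-fold (adjusted p = 0.000859).

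Genes seen on 1 side. Both scarce arrays were at or above background and all sufficient arrays below it for 208 genes, of which 113 were called. The reverse held for 50 genes, of which 24 were called and 9 were tRNA genes. A gene that passes the filter only through its high side must differ, so these counts describe the background level as much as the genes. Such genes also enter the counts and medians of the lists, where the filter set their direction. Beyond those named above, the scarce-only genes with the largest bounds included GPM2, a homologue of phosphoglycerate mutase, at 102 and 104 and then 5.6, 1.94 and 2.78 (at least 9.01-fold). On the sufficient side SNR63 had 2.70 and 6.42 and then 42.5, 45.1 and 35.4 (at least 3.56-fold), and SFK1, a plasma membrane protein, had 6.32 and 8.10 and then 50.2, 28.4 and 31.9 (at least 3.12-fold).

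Signal level and spread. Genes of higher signal rose more often: the share that rose was 4.81% among the 1206 dimmest genes and 20.1% among the 1206 brightest, while the share that fell followed no simple trend, at 21.1%, 26.9%, 22.5% and 17.5% from the dimmest to the brightest of 4 equal groups. Bright genes that were not called included TDH3, the main glyceraldehyde-3-phosphate dehydrogenase gene, at 3142 and 4385 and then 3241, 2466 and 2655. On the scarce side the median gene differed by 0.37 (log2) between 0 and 0.01 mM, and on the sufficient side the median range over 3 arrays was 0.39. The median gene was lower by 0.24 (log2) at 0.01 than at 0 mM, and 69.5% of all genes were higher at 0 mM, beside 77.8% of those that fell and 49.5% of those that rose. Scarce arrays differed 2-fold or more in 9% of all genes (434), 6.78% of those that fell (72) and 16.2% of those that rose (89). MOH1, a gene of starved cells, had the widest such spread among genes that fell, at 195 and 30.5, against 8.46, 10.4 and 15.1 at sufficient phosphate (6.15-fold; adjusted p = 0.0229).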

How the data were processed

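The signal intensity values were deposited by the authors as a table of 1 Affymetrix yeast array per sample; they are MAS5 signals, per the submitters' processing notes, with a target scaling not given in the sources used here. It holds no counts, and the number of arrays, 5, limits the precision. Of 9335 probe sets, 6504 were paired with 1 gene by GEO's platform annotation, 328 with several and 2503 were not listed; symbols were updated through RefSeq.

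The 40th percentile of all values (11.4) served as the floor before log2 transformation. Probe sets at or above this floor on at least 2 arrays were kept, 5083 in all, and averaged per gene. limma 3.58.1 in R 4.3.3 (lmFit, eBayes) compared the sides over all 5 arrays, with Benjamini-Hochberg adjustment over 4824 genes at 0.05. A gene below background on every array of 1 side has only a bound, given as "at least". The floor also removes its spread on that side, so its error and p-value leave that spread out.

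The split, the gene lists and the named genes were chosen with earlier results of these data known, so lists get counts and medians and no test. Named were PHO4 and TRP1, the 20 largest falls and rises, the smallest p-values, and in each list the members with the largest differences and those called against the rest, of which a selection is printed; other genes and the paralog pairs were chosen after their values were seen. Alternatives were other scalings, floors, filters, probe set rules, variance models and leaving out each array. Promoter motifs were not analysed here.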

Additional observations from a re-analysis of the deposited data

Results flagged for a closer look

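Signals outside the fitted genes also differed between the sides. The poly-A spike-in controls, RNA added to each sample, were 4.53-fold brighter on the scarce arrays, and the ribosomal RNA probe sets 2.87-fold in the geometric mean, with single probe sets between 0.94-fold and 9.66-fold. Of 2771 probe sets paired with several genes or with none, 876 passed the same filter. Among these, 186 were at least 2-fold lower at sufficient phosphate with sides that did not overlap, and 94 were at least 2-fold higher. These probe sets are unnamed here and none was tested.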

How the results depend on the processing

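With every array at 1 median, 798 genes were lower and 1136 higher. Quantile normalization gave 903 and 1005. Without a filter on dim probe sets the counts were 660 and 240. Equal poly-A spike-in signal gave 32 and 3792, and equal hybridisation control signal 949 and 547. The other floors, filters, probe set rule and variance models gave 760 to 1122 lower and 430 to 610 higher. Leaving out 1 array gave 557 to 914 lower and 256 to 360 higher; where 1 scarce array is left, it is assumed to vary like the others. Without the 0 mM array 523 of the 1062 genes that fell and 265 of the 549 that rose were still called. Of 226 called genes named in the report, 134 kept their call whichever array was left out. The call was lost for 72 of them without the 0 mM array, 54 without 0.01 mM, 38 without 0.1 mM, 46 without 1 mM and 34 without 10 mM, for 65 with no filter, and for 16 or fewer in each other setting run on single genes; none of the 226 turned sign in those. Some calls were lost without the 0 mM array and also without the 0.01 mM array. They included those of PHO8, PHO84, PHO90, SIW14, ROK1, RPL15B, MET6, MET17, LYS1, CKI1, IPT1, CIT1, KGD2, GDH2 and FET3. Some genes not called changed sign as follows. At 1 median the differences were 0.069 for GDH1, 0.26 for GSP1, 0.033 for HOR7, 0.12 for HXK2, 0.30 for MSN2 and 0.056 for PHO91, and after quantile normalization 0.30 for MSN2 and 0.00828 for PHO91. With 1 array left out they ranged from -0.33 to 0.22 for GSP1, -0.44 to 0.036 for HXK2, -0.55 to 0.50 for MSN2, -0.075 to 0.75 for TRP1 and -0.00982 to 0.11 for TRR1. Genes not called in the report became called as well: PHO4, SOL3, STE2 and YEF3 with arrays at 1 median, ACT1, ENO2, GDH1, PHO4, SOD1, STE2 and TDH3 after quantile normalization, XBP1 with the floor at the 20th percentile, with a pseudocount and without the 0.01 mM array, and MSN2 without the 0.01 mM array. The cause of these changes was not tested. No paired analysis was possible because each dose is 1 array and the sides share no replicate that the labels tie together. Dim signals limit what can be said of genes at the background level, whose differences are bounds.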
